A study of Arabidopsis thaliana with 2 samples.

Results

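Occupancy by IBH1 was examined at 10 genes of the Arabidopsis thaliana circadian clock: CCA1, LHY, PRR9, PRR7, TOC1, LUX, ELF3, ELF4, GI and CHE. The genes were chosen by name, with earlier results of these data known. Each was found in a gene table of 27444 nuclear protein-coding genes, where LUX is listed as PCL1 and CHE as TCP11. Chromatin immunoprecipitation and sequencing (ChIP-seq) had been applied to whole seedlings of ecotype Col-0, 10 days after sowing, grown untreated at 22 °C with 16 h of light a day. The design holds 2 libraries, 1 per group, in each case after precipitation with an antibody that recognises green fluorescent protein (GFP). One came from the line p35S::IBH1-GFP (IBH1OE), which makes IBH1 fused to GFP, and the control from p35S::GFP (GFP OE), which makes GFP alone. The 35S promoter is active in most tissues, so the tagged protein is not limited to the cells that make IBH1 naturally. DNA of 3 ChIP experiments was pooled for each library, so no spread between replicates can be had and no difference between the groups was tested. The labels are not uniform, since IBL1 stands in the tagged sample's title and Col-0 stands for the control in the library protocol. The groups follow the line. The hour of the day at which seedlings were collected is not given in the sources used here.

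The deposited data are 1 list of peaks and 1 list of their summits, read here as those of IBH1-GFP because the series is about IBH1. They hold 2944 nuclear peaks with a median width of 885 bp. The score is the peak caller's own value, 10 times the −log10 of its p-value as MACS writes it, and ran from 50.01 to 1045.71 with a median of 72.8. The height is the number of fragments stacked at the summit, from 14 to 100 with a median of 27. Both are the authors' values and rank peaks within this list only. No read total came with the lists, which leaves the depth unknown. A gene without a listed peak is a gene without a peak past the authors' threshold. As a check of the labels, the peak over the tagged gene IBH1 (AT2G43060) on chromosome 2 had the highest score, 1045.71, and the tallest summit, 100. DNA of the transgene and of the gene itself cannot be told apart there. A ChIP library holds no transcripts, so the labelled tissue was not checked against marker genes.

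The plant clock is a network of repressors whose levels peak in turn through the day. The MYB factors CCA1 and LHY act around dawn, the pseudo-response regulators PRR9, PRR7 and TOC1 follow from morning to evening, and the evening complex of LUX, ELF3 and ELF4 acts at dusk and in the night. The clock sets the hours at which seedling stems elongate, in part because the evening complex represses genes of growth-promoting bHLH factors, and IBH1 is a helix-loop-helix repressor of elongation in the brassinosteroid pathway.

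A summit lay inside or within 1000 bp of 4 of the 10 clock genes, CCA1, LUX, GI and CHE. Among all 27444 protein-coding genes 3499 had one, or 12.7%. The other members, LHY, PRR9, PRR7, TOC1, ELF3 and ELF4, had none. Each of the 4 genes was reached by 1 summit, and the 4 summits belonged to separate peaks on chromosomes 2, 3, 1 and 5. A member with a summit is called occupied below, which means only this. The clock genes were long, with a median of 3753 bp against 2078 bp for all protein-coding genes, and longer genes were reached more often: 7 members fell in the longest quartile of all genes, of which 15.7% were occupied. Peaks scoring 100 or more reached LUX alone, against 3.38% of all genes, and with each summit counted for its nearest protein-coding gene only, CHE and GI were left, against 9.26%. With 10 genes from 1 peak list, these counts describe the loci and no more.

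**Figure D1:**
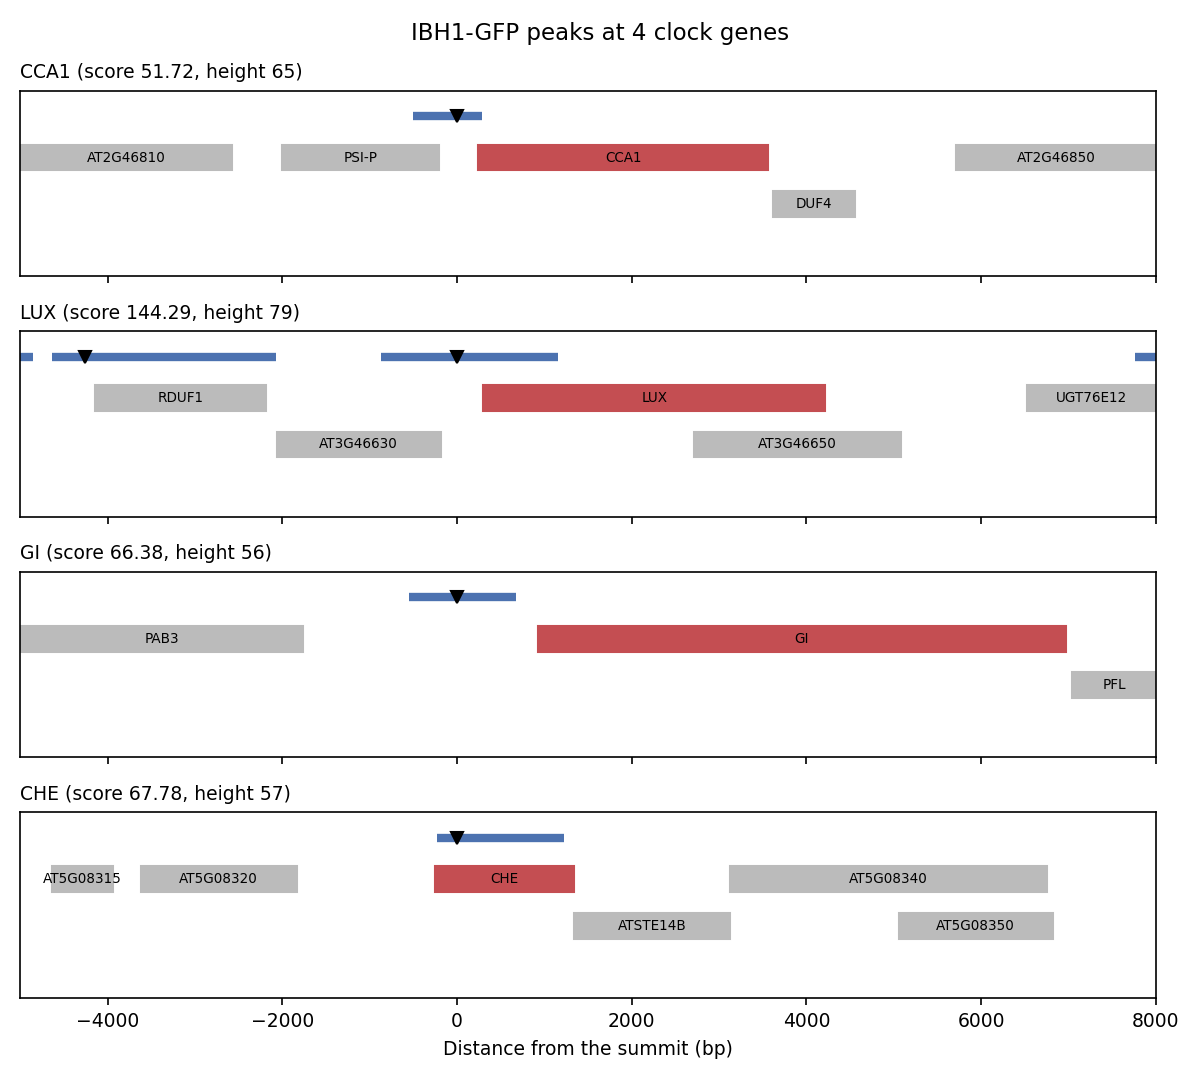
Peaks at CCA1, LUX, GI and CHE. The horizontal axis is the distance from the summit in bp, blue bars are peaks, black triangles their summits, red boxes the clock genes and grey boxes other protein-coding genes. The summits of CCA1, LUX and GI lie outside the gene at its lower-coordinate end, 241, 299 and 929 bp away, and that of CHE lies inside.

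Of the dawn factors, CCA1 was occupied and its close relative LHY was not. The peak at CCA1 (AT2G46830) spanned chr2:19244847-19245642 (TAIR9), 796 bp wide, scoring 51.7 with a summit 65 fragments high. Its summit at 19245350 was 241 bp outside CCA1, in a gap of 449 bp between CCA1 and PSI-P (AT2G46820), a gene for a thylakoid membrane protein. The summit was slightly nearer to PSI-P, at 209 bp, and the peak covered 295 bp of PSI-P but only 52 bp of CCA1. The score was close to the lowest of the list, above or equal to 5.81% of peaks, whereas the summit was the 39th tallest, at or above 98.7% of them. For LHY (AT1G01060) the nearest summit was 17637 bp away, on the side of higher coordinates and 771 bp from IQD18. No listed summit lay between LHY and the start of chromosome 1.

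None of the pseudo-response regulators, which repress CCA1 and LHY in turn from morning to evening, had a summit nearby. PRR9 (AT2G46790) lies close to CCA1 on chromosome 2, and its nearest summit, 10171 bp away, was the one between CCA1 and PSI-P. The nearest summit of TOC1 (AT5G61380), the evening member, was 49709 bp away and lay inside SNAP33 (AT5G61210). That of PRR7 (AT5G02810) was 68499 bp away and lay inside IQD2 (AT5G03040). PRR5 and PRR3, the remaining members of the family, were likewise without a summit, with distances of 24494 and 33041 bp. All 5 genes therefore lay more than 10000 bp from a summit, PRR9 only just. Within 10000 bp, 4 of the 10 members had a summit, close to the 41.9% of all protein-coding genes.

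In the evening complex, LUX was occupied, while ELF3 and ELF4 were not. LUX (AT3G46640) is the subunit that binds DNA. Its peak, chr3:17181876-17183905, had the highest score among the clock genes, 144.3, which was rank 270 of 2944. It was also the widest, at 2030 bp, wider than or equal to 97.8% of peaks, and its height of 79 was rank 9. The summit at 17182743 was 299 bp outside LUX and 183 bp from AT3G46630, in a gap of 481 bp between them, and the peak covered 864 bp of LUX and 685 bp of AT3G46630. LUX stood in a stretch rich in summits: 16 lay within 100 kb of it, and 34.5% of the 252 other protein-coding genes within 500 kb were occupied, against 3.07% to 16.7% around the other 9 members. The part of this local density in the peak at LUX was not tested.

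ELF3 (AT2G25930), which bridges LUX and ELF4, had its nearest summit 28024 bp away, 50 bp from AT2G25870. ELF4 (AT2G40080), the shortest of the members at 660 bp, had its nearest summit 25181 bp away, inside AT2G40010. Around ELF3 14.1% of the neighbours within 500 kb were occupied, and around ELF4 8.99%, so summits were present in both neighbourhoods.

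GI and CHE, which act beside these groups, both had a summit. GI (AT1G22770), which stabilises the F-box protein that removes TOC1, had a peak at chr1:8060278-8061495, which scored 66.4 and was 56 fragments high. Its summit at 8060822 was 929 bp from GI, just inside the limit of 1000 bp, and the peak ended 256 bp before the gene. It lay in a gap of 2690 bp between GI and PAB3 (AT1G22760), a poly(A)-binding protein gene, from which it was 1762 bp away, so GI was the nearest gene. CHE (AT5G08330), a TCP factor that binds the CCA1 promoter, was the only member with a summit inside its bounds, in a peak at chr5:2680428-2681879 that scored 67.8 and was 57 fragments high. The whole peak, 1452 bp of the gene's 1593 bp, lay within CHE, and the summit at 2680656 was 255 bp from its lower end. The nearest other gene, ATSTE14B (AT5G08335), was 1340 bp from the summit and separated from CHE by 2 bp. Inside gene bounds, 7.05% of all protein-coding genes held a summit. The next summits were 93988 bp from CHE on the side of higher coordinates and 206337 bp on the other.

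In the order of distances, GI at 929 bp was followed by PRR9 at 10171 bp, and no member lay between. Among all protein-coding genes, 12.5% had a summit within 929 bp and 42.2% within 10171 bp. With 10 genes, this gap describes these loci only. Distances of the 6 members without a summit in reach ran from 10171 to 68499 bp with a median of 26603 bp. Of these, 5 exceeded 17440 bp, the median of all genes without a summit in reach, LHY only slightly at 17637 bp. Over all 10, the median of 13904 bp was close to that of all protein-coding genes, 13766 bp. Within 20000 bp, 6 of the 10 members had a summit, against 60.3% of all genes.

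**Figure D2:**
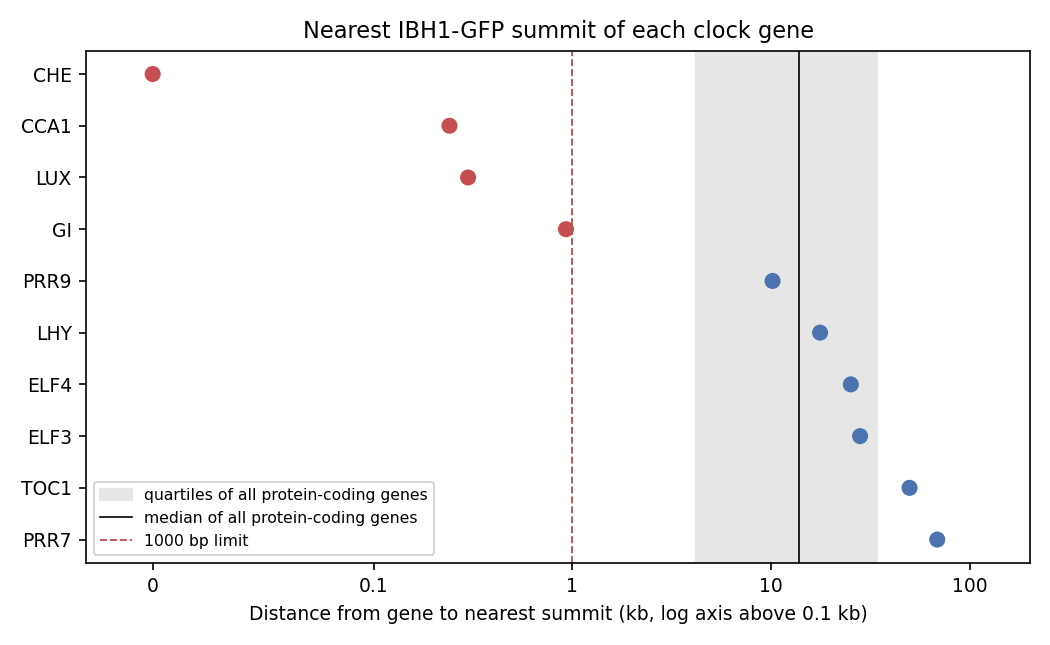
Distance of each clock gene to its nearest summit in kb, on a log axis above 0.1 kb. Red points are genes with a summit inside or within 1000 bp, blue points the others; the grey band and the black line are the quartiles and the median of all protein-coding genes. CHE, CCA1, LUX and GI stand left of the dashed limit, and the other 6 begin at PRR9, 10171 bp away.

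At each of the 4 occupied genes the summit was tall, though genes and measures were chosen with earlier results of these data known. The heights were 79 at LUX, 65 at CCA1, 57 at CHE and 56 at GI, so that all 4 stood among the tallest 10% of summits, which began at 45 fragments. Their scores did not stand apart in the same way. LUX alone was above the median score of 72.8, and CHE, GI and CCA1 scored 67.8, 66.4 and 51.7. A summit of 56 fragments or more was found at 110 nuclear peaks, or 3.74%, and these had a median score of 135.3 (quartiles 85.8 and 199.9). Of those 110 peaks 21 scored below the median of the list, among them the 3 at CHE, GI and CCA1. The list gives no value of the control library at these places. Of 99 summits in gaps of at most 500 bp between protein-coding genes, where the summits of CCA1 and LUX lay, 21.2% were 45 fragments high or more, against 10.4% of all nuclear summits. The 99 summits had a median height of 32. They include those of CCA1 and LUX, and the limit of 500 bp was chosen with earlier results known.

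**Figure D3:**
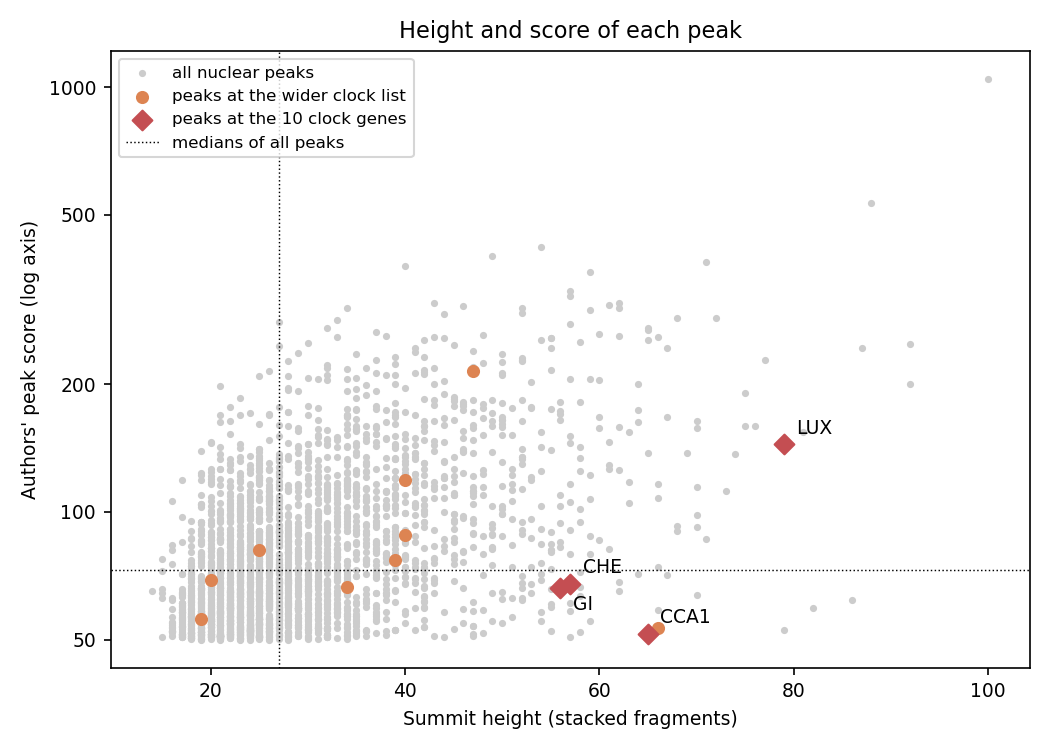
Summit height in stacked fragments against the authors' score on a log axis for each of 2944 nuclear peaks (grey), with peaks at the 10 clock genes (red) and at a wider list of clock genes (orange); dotted lines are the medians. The 4 peaks at clock genes lie at heights of 56 to 79, far right of the median of 27, and 3 of them lie below the median score.

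A wider list of clock and clock-output genes, written by hand, was read in the same way. Of its 40 entries 35 matched the gene table by symbol or alias, and 8 of these 35 were occupied (22.9%, against 12.7% of all genes). The 8 occupied genes were BOA, SRR1, ELF4-L4, LNK3, LKP2, GRP7, CDF3 and CO. With scores of 100 or more 2 of the 35 were left (5.71%, against 3.38% of all genes). At or above the median score 4 were left (11.4%, against 6.70%), and inside gene bounds 3 (8.57%, against 7.05%). Among regulators of the core, BOA (AT5G59570), the closest relative of LUX, had a summit 96 bp outside the gene scoring 77.1 at a height of 39. SRR1 (AT5G59560), its neighbour and a clock regulator itself, had 2 summits within 1000 bp, with scores of 118.8 and 88.4. ELF4-L4 (AT1G17455), a relative of ELF4, scored 66.7 at a summit 49 bp outside the gene, whereas ELF4-L1, ELF4-L2 and ELF4-L3 were 36725, 49345 and 107451 bp from theirs. The F-box blue light receptor gene LKP2 (AT2G18915) scored 69.2 at a low summit of 20 fragments inside the gene. ZTL and FKF1, which encode its relatives, were 80992 and 29444 bp from the nearest summit.

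LNK3 (AT3G12320), of a family of coactivators that work with the REVEILLE factors, resembled CCA1 in its values: the summit was 110 bp outside the gene, 66 fragments high, with a score of 53.4. It lay between LNK3 and BUG22, which was 250 bp away. LNK1, LNK2 and LNK4 had their nearest summits 1621, 11643 and 14856 bp away. The REVEILLE genes RVE1, RVE2, RVE4, RVE7 and RVE8, relatives of CCA1 and LHY, were not occupied, with distances from 6204 to 119614 bp. Another 4 entries written into the list as REVEILLE genes did not match the table by name, and 1 of them, AT4G01280, held 2 summits, with scores of 74.4 and 51.9. Among outputs, GRP7 (AT2G21660), an RNA-binding protein gene under clock control, had the highest score among the 35 matched genes, 214.5. Its summit lay inside the gene and was 47 fragments high, whereas GRP8 was 47536 bp from the nearest summit. CDF3 (AT3G47500) scored 55.8 at an inner summit of 19 fragments, while CDF1 and CDF2 were 2835 and 31095 bp from their nearest summits. CDF3 lies on chromosome 3, as LUX does, and 12 summits lay within 100 kb of it. Around CDF3 28.2% of the 245 other protein-coding genes within 500 kb were occupied. The part of this local density in its peak was not tested. The flowering regulator CO (AT5G15840) had a summit 324 bp outside the gene, with a score of 81.5, which lay inside a long noncoding RNA gene. FT, its target, was 7189 bp from the nearest summit. The 27 genes of the list without a summit in reach lay 1621 to 119614 bp from one.

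**Figure D4:**
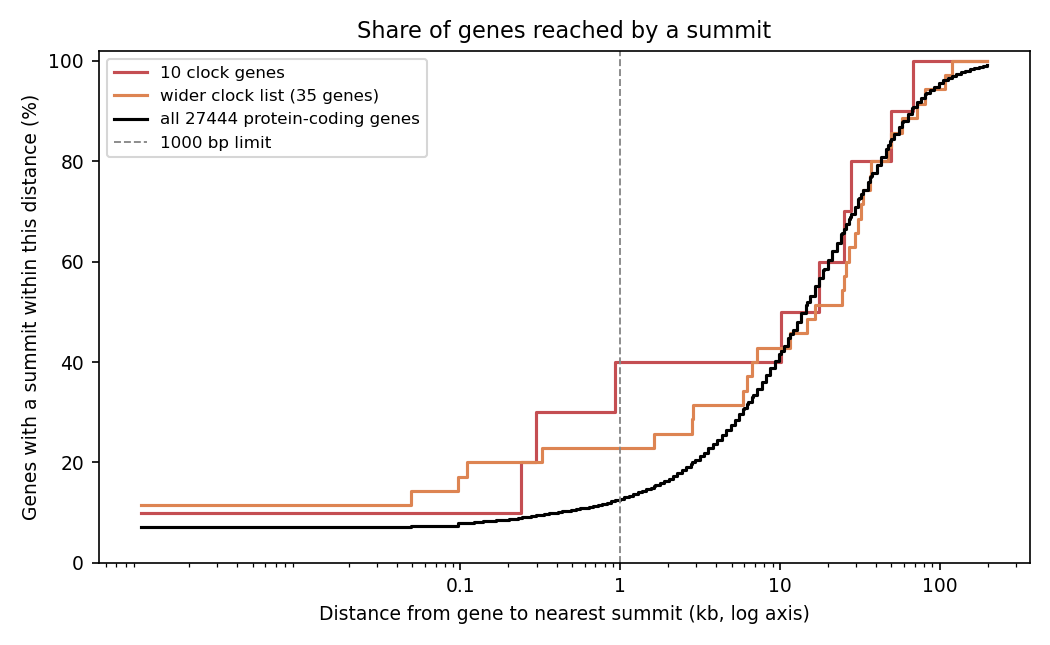
Share of genes, in percent, with a summit within a given distance in kb on a log axis, for the 10 clock genes (red), the 35 genes of the wider clock list (orange) and all 27444 protein-coding genes (black). At 1000 bp the values are 40%, 22.9% and 12.7%, and beyond 10000 bp the red line runs close to the black one.

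LUX and BOA, chosen here after their values were seen, have like neighbours. Next to LUX on chromosome 3 lie AT3G46630 and RDUF1 (AT3G46620), a RING-type ubiquitin ligase gene, and next to BOA on chromosome 5 lie SRR1 and RDUF2 (AT5G59550), the relative of RDUF1. Summits were listed along both stretches. On chromosome 3 a summit lay 122 bp outside RDUF1, scoring 78.8 at a height of 40, and the next was that of LUX. On chromosome 5 a summit lay inside RDUF2, scoring 118.8 at a height of 40. It was also 590 bp from SRR1 and is the first of the 2 given for that gene. Another was 1 bp outside SRR1, with a score of 88.4, and the last was 96 bp outside BOA. Both LUX and BOA had their summit at the end of the gene that faces the RDUF gene. The summit of LUX, 79 fragments high, was taller than that of BOA, at 39, within the same list.

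**Figure D5:**
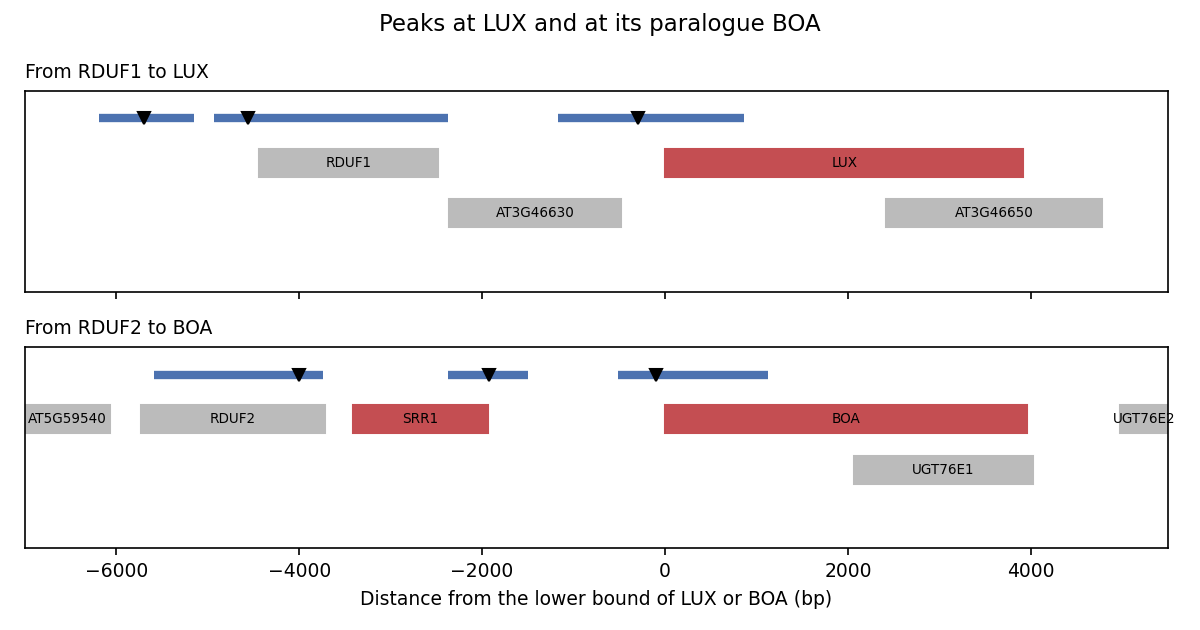
Peaks from RDUF1 to LUX and from RDUF2 to BOA. The horizontal axis is the distance in bp from the lower-coordinate bound of LUX or BOA; blue bars are peaks, black triangles summits, red boxes clock genes and grey boxes other protein-coding genes. A summit stands 299 bp before LUX and 96 bp before BOA.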

How the data were processed

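ChIP-seq of 1 IBH1-GFP and 1 GFP library was deposited as a peak list and a summit list. The submitters' processing notes list the tools MACS, Bowtie and CASAVA 1.8.2 and the genome build TAIR9, without settings. Per the labels' protocols, DNA of 3 ChIP experiments was pooled and amplified in 18 PCR cycles. The authors' score per peak and the deposited signal at each summit (its height) were used as they stand, with no rescaling.

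Genes, symbols and bounds came from a RefSeq table of assembly TAIR10.1 without strand, exons or sequence, so a gene's start and end were not told apart and motifs were not searched. No coordinate of that table is printed. To check that both builds share coordinates, summits were moved by up to 5000 bp in 100 bp steps; on each of the 5 nuclear chromosomes the number inside protein-coding genes peaked at a move of at most 200 bp. Distances run from the summit to the nearest gene bound, 0 inside. A gene was called where its bounds or the 1000 bp beside them held a summit, and a summit counts for each gene in reach. Percentiles are shares of nuclear peaks or genes at or below a value. The distance routine was checked on a toy example. Python 3.11.15, numpy 2.4.6 and pandas 2.3.3 were used.

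The members, lists, measures and alternatives were chosen with earlier results of these data known, so no test was made on them. The text names all members, the gene nearest to their summits and the occupied genes of the wider list; relatives without a summit, and genes of the paragraph on RDUF1 and RDUF2, were named after their values were seen. Entries of the wider list whose symbol did not match the table (5 of 40) were left out.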

Additional observations from a re-analysis of the deposited data

How the results depend on the processing

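The count of 4 occupied clock genes stayed at 4 with a flank of 2000 bp, with peak midpoints and with any overlap of the peak. The shares of all protein-coding genes were then 16.7%, 12.8% and 14.7%. With a flank of 500 bp the count was 3, without GI, against 10.6% of all genes. The count was 1 with scores of 100 or more and 1 at or above the median score (LUX in both). It was 1 for summits inside gene bounds (CHE), and 2 when each summit counted for its nearest gene (CHE and GI). Under those 4 settings all protein-coding genes with a summit numbered 927, 1840, 1934 and 2542 in place of 3499, or 3.38%, 6.70%, 7.05% and 9.26%. The wider list fell from 8 to 2, 4 and 3 of 35 under the first 3 of them, or 5.71%, 11.4% and 8.57%. Its count stayed at 8 with the nearest gene only. It was 10 of 40 (25%, against 12.7% of all genes) when entries were kept by locus code alone. That alternative was chosen after seeing the data. The median distance of the 10 genes rose from 13904 to 196288 bp with scores of 100 or more and to 66182 bp at or above the median score, with fewer peaks by construction. The planned search for motifs in promoters was not run, for want of sequence. No paired analysis was possible because there is 1 library per group. Depth is unknown, so occupancy below the authors' threshold cannot be judged at the other clock genes.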

Other observations

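Of the 5 entries of the wider list that did not match the table by name, 2 were occupied, against 12.7% of all protein-coding genes. AT3G21320 had a summit 151 bp outside the gene scoring 228.1 at a height of 77, and AT4G01280, entered in the list as a REVEILLE gene, held 2 summits of 19 and 22 fragments.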
